A study of Mus musculus with 8 samples.

Results

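The genes of the T cell receptor complex and the T lineage were examined in splenic B cell isolates as a measure of T cells left behind by the isolation. They are 9 of the 24902 gene symbols in the deposited count matrix and were chosen by symbol: Cd3d, Cd3e, Cd3g, Cd247, Cd4, Cd8a, Lck, Lat and Bcl11b. B cells were taken with a kit for all B cells from spleens of diseased mice that had met early removal criteria, and their RNA was sequenced in bulk. The matrix holds 4 Eµ-PRMT5 mice, 3 Eµ-PRMT5/TCL1 mice and 1 Eµ-TCL1 mouse.

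The labels give C57BL/6N for all 8 mice, while the methods place the Eµ-TCL1 line used in the cross on C57BL/6J. Eµ-PRMT5 mice carry human PRMT5 behind an immunoglobulin heavy chain variable region promoter and the Eµ enhancer, which drive it in B lineage cells, and Eµ-TCL1 mice carry human TCL1. Eµ-PRMT5/TCL1 mice come from a cross of both lines. Ages and batches are not given for these libraries, no wild-type library is in the matrix, and the title of Eµ-PRMT5 mouse 2 carries a number that the methods give to a founder animal. The titles of Eµ-PRMT5 mice 3 and 4 carry codes that also label animals with a histology description. For the former code, the paper describes anaplastic large lymphocytes with infiltrates of histiocytes, and for the latter, sheets of small lymphocytes. Whether this difference bears on the levels below was not tested. The Eµ-TCL1 group is 1 mouse with no replicate, so a difference from it was read against the spread within the other groups.

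The T cell receptor recognises peptide on MHC through its alpha and beta chains, and passes the signal on through the CD3 chains and the zeta chain, which carry the tyrosine motifs that the chains themselves lack. The coreceptors CD4 and CD8 bring the kinase Lck to the receptor, Lck phosphorylates those motifs, and the adaptor Lat then gathers the enzymes that act further on. B cells signal through their own receptor with other chains, and CD3 chains mark T cells in the spleen, while some T lineage kinases and surface proteins are also made by B cells, CLL-like B cells among them.

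Total counts were 5484833, 6471716, 3987989 and 10252426 for Eµ-PRMT5 mice 1 to 4, 6232700, 7290268 and 6686631 for Eµ-PRMT5/TCL1 mice 1 to 3, and 3356297 in the lone Eµ-TCL1 mouse. Levels are given in CPM, counts scaled to a common library size by TMM, so that 1 CPM stood for between 3.70 counts, in the lone Eµ-TCL1 mouse, and 8.67 counts, in Eµ-PRMT5 mouse 4. Values are given in the order of the mouse numbers. The matrix holds NA in 36919 cells beside cells that hold 0, its meaning is not stated, and NA was not read as 0. Cd3d, Cd3e, Cd3g, Cd247, Lck and Lat had a value in all 8 libraries and passed the filter on low counts, 6 of 9 members, while Cd4, Cd8a and Bcl11b each held NA in 1 library.

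Cd3d and Cd3e code for the delta and epsilon chains of CD3. Cd3d lies at chr9:44981786-44987339 (GRCm38) on the plus strand and Cd3e at chr9:44998740-45009627 on the minus strand. Between them and Cd3g, which codes for the gamma chain and lies at chr9:44969572-44980431 on the minus strand, the cluster spans 40056 bases. The starts of Cd3g and Cd3d are 1355 bases apart and point away from each other. Promoter windows of 250 bases before and 50 after the start, credited to RefSeq on GRCm38.p6, matched 8 of the 9 members with 9 windows, and Cd4 had no entry. The 3 CD3 windows are shown because the genes are neighbours whose levels across the mice differ. Capitals mark matches on either strand to 3 motifs: TGTGGT (RUNX), AGGAAG (ETS) and CAGNTG (E-box), with no match overlapping another. The windows are Cd3d at chr9:44981536-44981835 on the plus strand, Cd3e at chr9:45009562-45009861 on the minus strand and Cd3g at chr9:44980382-44980681 on the minus strand.
Cd3d: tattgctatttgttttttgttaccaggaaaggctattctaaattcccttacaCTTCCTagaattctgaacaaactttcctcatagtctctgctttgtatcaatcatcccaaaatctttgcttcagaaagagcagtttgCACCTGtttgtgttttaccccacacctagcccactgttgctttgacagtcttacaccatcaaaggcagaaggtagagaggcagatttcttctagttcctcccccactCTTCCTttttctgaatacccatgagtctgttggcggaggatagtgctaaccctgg
Cd3e: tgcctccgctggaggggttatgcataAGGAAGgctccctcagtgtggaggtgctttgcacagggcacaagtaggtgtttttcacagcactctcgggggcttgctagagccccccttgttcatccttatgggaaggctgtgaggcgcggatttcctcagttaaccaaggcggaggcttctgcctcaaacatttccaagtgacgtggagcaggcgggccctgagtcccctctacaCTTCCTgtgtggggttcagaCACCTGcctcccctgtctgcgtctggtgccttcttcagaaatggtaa
Cd3g: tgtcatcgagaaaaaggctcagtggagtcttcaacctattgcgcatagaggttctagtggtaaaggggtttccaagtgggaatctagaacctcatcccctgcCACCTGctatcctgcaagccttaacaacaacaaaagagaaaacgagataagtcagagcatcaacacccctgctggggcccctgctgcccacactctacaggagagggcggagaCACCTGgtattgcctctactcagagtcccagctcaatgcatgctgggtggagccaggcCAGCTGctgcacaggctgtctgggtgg
The Cd3d window held 2 ETS matches and 1 E-box match, and the Cd3e window the same numbers. The Cd3g window held 0 ETS matches and 3 E-box matches. Of the 32817 promoter windows in the table, 16.8% held the RUNX letters, 35.4% the ETS letters and 51.4% the E-box letters. Of the 9 member windows, 2 held RUNX, 7 ETS and 8 E-box letters. A match is a description of the sequence.

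Cd3d was at 13.2, 6.81, 44.7 and 2.65 CPM across the Eµ-PRMT5 mice, at 4.10, 2.43 and 2.15 CPM across the Eµ-PRMT5/TCL1 mice and at 2.43 CPM in the lone Eµ-TCL1 mouse. The level in Eµ-PRMT5 mouse 3 was far above the rest, mice 1 and 2 stood between, and Eµ-PRMT5 mouse 4 lay among the Eµ-PRMT5/TCL1 mice, so these groups overlapped. The means were 16.8 ± 19.1 CPM (SD, n = 4) and 2.89 ± 1.05 CPM (SD, n = 3). In bulk RNA, fewer T cells and less of these transcripts per T cell cannot be told apart.

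Cd3e was at 17.0, 14.2, 55.2 and 6.57 CPM across the Eµ-PRMT5 mice, at 7.38, 6.43 and 9.99 CPM across the Eµ-PRMT5/TCL1 mice and at 21.6 CPM in the lone Eµ-TCL1 mouse. The order of the Eµ-PRMT5 mice was that of Cd3d, with mouse 3 high and mouse 4 low, while the Eµ-TCL1 mouse, low for Cd3d, was above all Eµ-PRMT5/TCL1 mice for Cd3e. The means of the PRMT5 genotypes were 23.3 ± 21.7 CPM (SD, n = 4) and 7.93 ± 1.84 CPM (SD, n = 3). Cd3d and Cd3e were each the nearest to the other among the 6 complete members, with a root mean square difference of 0.84 between their centred log2 profiles over the 8 libraries. A predicted gene on the opposite strand, Gm48719, overlaps 135 bases or 3.31% of the exon bases of Cd3e.

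Cd3g was at 14.2, 20.9, 71.1 and 95.1 CPM across the Eµ-PRMT5 mice, at 63.6, 29.3 and 38.6 CPM across the Eµ-PRMT5/TCL1 mice and at 47.0 CPM in the lone Eµ-TCL1 mouse. Eµ-PRMT5 mouse 4, the lowest Eµ-PRMT5 mouse for Cd3d and Cd3e, was the highest of all for Cd3g, and Eµ-PRMT5 mouse 1 was the lowest of all. The means, 50.3 ± 39.2 CPM (SD, n = 4) and 43.8 ± 17.8 CPM (SD, n = 3), differed by less than the spread within either group. Per kilobase of exon, the level of Cd3g was 0.598, 1.70, 0.884 and 19.9 times that of Cd3d across the Eµ-PRMT5 mice, 8.62, 6.70 and 9.95 times across the Eµ-PRMT5/TCL1 mice and 10.7 times in the lone Eµ-TCL1 mouse. The chains were not at 1 ratio, with Cd3g near the level of Cd3d in Eµ-PRMT5 mice 1 to 3 and well above it in the other 5 libraries. The root mean square difference between the centred log2 profiles of Cd3d and Cd3g was 1.68, and the gene nearest to Cd3g among the complete members was Lat, at 1.05.

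Cd247 codes for the zeta chain and lies at chr1:165788681-165877277 on the plus strand. Its level was 2.44, 6.97, 32.6 and 0.692 CPM across the Eµ-PRMT5 mice, 4.10, 7.01 and 3.69 CPM across the Eµ-PRMT5/TCL1 mice and 5.41 CPM in the lone Eµ-TCL1 mouse. Eµ-PRMT5 mouse 3 was again the highest and mouse 4 the lowest, with 6 counts and a 95% exact Poisson interval from 0.254 to 1.51 CPM, which covers counting error only. The other 6 libraries lay between 2.44 and 7.01 CPM and the groups overlapped. The means were 10.7 ± 14.9 CPM (SD, n = 4) and 4.93 ± 1.81 CPM (SD, n = 3). Exons of Pou2f1 on the opposite strand overlap 3007 bases, 56.4% of the exon bases of Cd247, and the notes on counting do not say whether strand was used, so reads from that stretch cannot be told apart. Pou2f1, a widely expressed transcription factor, was at 35.9, 33.9, 66.3 and 64.3 CPM across the Eµ-PRMT5 mice, at 28.5, 41.3 and 88.2 CPM across the Eµ-PRMT5/TCL1 mice and at 57.6 CPM in the lone Eµ-TCL1 mouse. Pou2f1 was highest in Eµ-PRMT5/TCL1 mouse 3 and lowest in mouse 1 of that genotype, and its part in the level of Cd247 was not tested.

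**Figure D1:**
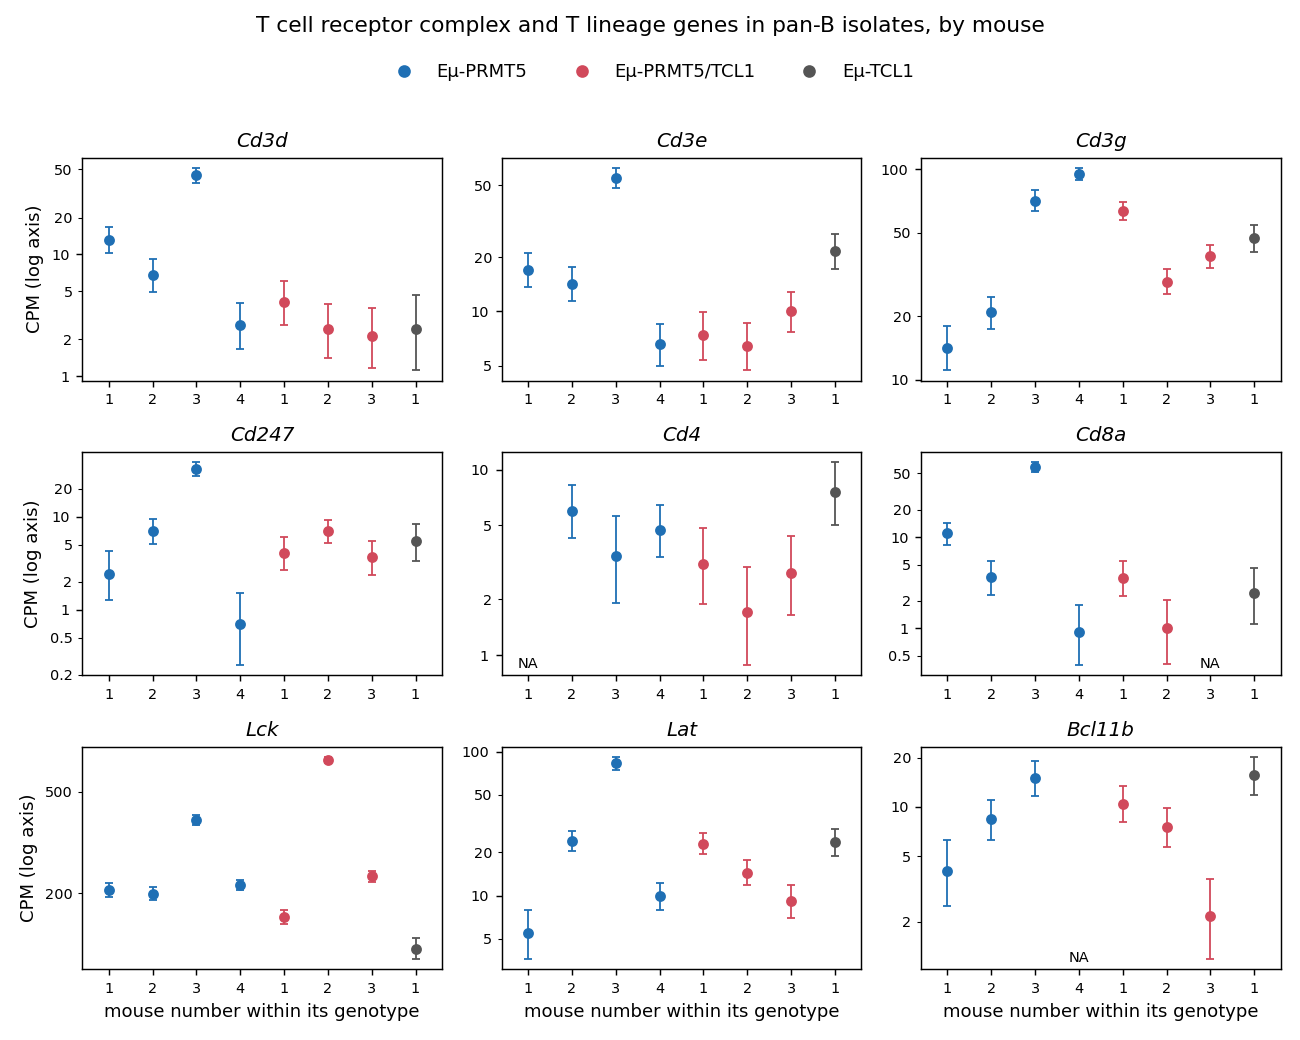
Level of each member in each mouse, in TMM-scaled CPM on a log axis, with bars for the 95% exact Poisson interval of the count. Eµ-PRMT5 mouse 3 is the highest library for Cd3d, Cd3e, Cd247, Cd8a and Lat, Eµ-PRMT5 mouse 4 for Cd3g and Eµ-PRMT5/TCL1 mouse 2 for Lck.

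Cd4 and Cd8a code for the coreceptors that mark helper and cytotoxic T cells, and lie at chr6:124864692-124888221 on the minus strand and chr6:71373427-71379173 on the plus strand. Cd4 held NA in Eµ-PRMT5 mouse 1 and was at 6.02, 3.42 and 4.73 CPM in Eµ-PRMT5 mice 2 to 4, at 3.12, 1.72 and 2.77 CPM across the Eµ-PRMT5/TCL1 mice and at 7.57 CPM in the lone Eµ-TCL1 mouse. The Eµ-PRMT5 mice with a value were all above the Eµ-PRMT5/TCL1 mice, the closest at 3.42 against 3.12 CPM. The share of all genes that part in this way among these mice was not counted, so the order is a description only. The 95% counting interval of each overlapped those of double transgenic mice 1 and 3. That of Eµ-PRMT5 mouse 3 also overlapped that of double transgenic mouse 2. The Eµ-TCL1 mouse was the highest. Some macrophages and dendritic cells also make Cd4.

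Cd8a was at 10.96, 3.64, 58.4 and 0.922 CPM across the Eµ-PRMT5 mice, at 3.61 and 1.00 CPM in Eµ-PRMT5/TCL1 mice 1 and 2, at NA in mouse 3, and at 2.43 CPM in the lone Eµ-TCL1 mouse. Again mouse 3 of the Eµ-PRMT5 group was the highest and mouse 4 the lowest, and the groups overlapped. Cd8b1, the beta chain partner of Cd8a, was at 9.95, 12.5, 125 and 1.85 CPM across the Eµ-PRMT5 mice, at 12.5, 9.58 and 5.07 CPM across the Eµ-PRMT5/TCL1 mice and at 10 CPM in the lone Eµ-TCL1 mouse. Both chains had the same highest and lowest mouse, while Cd4 did not follow them: per kilobase, Cd8a was 18.9 times Cd4 in Eµ-PRMT5 mouse 3 and between 0.216 and 1.28 times in the other 5 libraries with both values. Some dendritic cells also carry Cd8a without Cd8b1.

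Lck, the kinase bound to the coreceptors, lies at chr4:129548344-129573641 on the minus strand. Its promoter table holds 2 windows, shown because Lck made up most of the members' summed level. The first, at chr4:129558323-129558622 on the minus strand, held 1 ETS and 1 E-box match, and the second, at chr4:129573592-129573891 on the minus strand, held 1 RUNX, 3 ETS and 1 E-box matches, in capitals as before.
Lck, first window: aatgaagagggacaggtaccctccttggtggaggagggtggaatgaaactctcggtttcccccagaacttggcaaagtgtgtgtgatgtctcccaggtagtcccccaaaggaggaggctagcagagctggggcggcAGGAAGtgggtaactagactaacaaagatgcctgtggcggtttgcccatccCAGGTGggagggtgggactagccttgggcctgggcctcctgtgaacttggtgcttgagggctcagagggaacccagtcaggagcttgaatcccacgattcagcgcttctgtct
Lck, second window: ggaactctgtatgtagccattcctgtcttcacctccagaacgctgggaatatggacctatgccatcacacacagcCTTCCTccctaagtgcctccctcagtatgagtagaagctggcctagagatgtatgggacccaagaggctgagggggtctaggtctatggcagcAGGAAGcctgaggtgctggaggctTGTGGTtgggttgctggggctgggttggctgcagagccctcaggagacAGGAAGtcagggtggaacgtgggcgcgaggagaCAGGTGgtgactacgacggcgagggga
Lck was at 207, 200 and 387 CPM in Eµ-PRMT5 mice 1 to 3 and 216 CPM in mouse 4, at 161, 667 and 233 CPM across the Eµ-PRMT5/TCL1 mice and at 121 CPM in the lone Eµ-TCL1 mouse. Eµ-PRMT5/TCL1 mouse 2 was the highest, the Eµ-TCL1 mouse was below all others, and both PRMT5 groups overlapped. Means were 253 ± 90.1 CPM (SD, n = 4) and 354 ± 273 CPM (SD, n = 3). Per kilobase, Lck was 16.9, 19.5, 9.78 and 45.9 times Cd3e across the Eµ-PRMT5 mice, 30.5, 144 and 32.5 times across the Eµ-PRMT5/TCL1 mice and 7.82 times in the lone Eµ-TCL1 mouse. Lck was thus above Cd3e in every library by unequal ratios, the widest in Eµ-PRMT5/TCL1 mouse 2.

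Lat, the adaptor, lies at chr7:126363824-126369570 on the minus strand. It was at 5.48, 23.9, 83.2 and 9.92 CPM across the Eµ-PRMT5 mice, at 23.0, 14.4 and 9.22 CPM across the Eµ-PRMT5/TCL1 mice and at 23.5 CPM in the lone Eµ-TCL1 mouse. Highest was Eµ-PRMT5 mouse 3 and lowest mouse 1, with all other libraries between them. Means were 30.6 ± 35.9 CPM (SD, n = 4) and 15.5 ± 6.93 CPM (SD, n = 3). The profile of Lat was nearest to that of Cd247 among the complete members, at a root mean square difference of 0.74.

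Bcl11b, a transcription factor that commits thymocytes to the T lineage, lies at chr12:107910403-108003602 on the minus strand. It was at 4.06, 8.39 and 15.1 CPM in Eµ-PRMT5 mice 1 to 3, at NA in mouse 4, at 10.5, 7.58 and 2.15 CPM across the Eµ-PRMT5/TCL1 mice and at 15.7 CPM in the lone Eµ-TCL1 mouse. The Eµ-TCL1 mouse and Eµ-PRMT5 mouse 3 were the highest and both PRMT5 groups overlapped.

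By level per kilobase, the median over the libraries ran from Lck (72.2) to Cd3g (13.1), Lat (6.76), Cd3e (2.97), Cd3d (1.86), Bcl11b (1.04), Cd8a (0.992), Cd247 (0.892) and Cd4 (0.848). Lck did not overlap its neighbour in that order, since its lowest library, at 41.4 CPM per kilobase, was above the highest for Cd3g, at 29.1. Each later neighbour overlapped the one before it across the libraries, so their order is not beyond the spread.

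The first comparison, Eµ-PRMT5/TCL1 against Eµ-PRMT5, asks how the B cell isolates of the double transgenic mice differ from those with the PRMT5 transgene alone. Of the 6 members tested, 5 were lower across the Eµ-PRMT5/TCL1 mice and Lck was higher. The log2 fold change was -2.53 for Cd3d (SE 0.875), -1.54 for Cd3e (SE 0.669), -1.09 for Cd247 (SE 0.991) and -0.97 for Lat (SE 0.784). It was -0.20 for Cd3g (SE 0.598) and 0.49 for Lck (SE 0.481). The median was -1.03 over the members and -0.09 over the 13173 genes tested, of which 59.4% were negative. The adjusted p from edgeR was 1 for each of the 6.

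edgeR called 0 members and 0 of all genes (0%) with the adjusted p below 0.05 and the fold above 4, and DESeq2 called 0 members and 4 genes (0.0304%). At an unadjusted p under 0.05, edgeR gave 2 members lower, Cd3d and Cd3e, and 0 higher, beside 160 genes lower (1.21%) and 126 higher (0.957%) of all tested, and DESeq2 also gave 2 members lower, beside 248 genes lower (1.88%) and 146 higher (1.11%). Among the 6 complete members, the groups did not overlap for 0, beside 210 genes lower (1.59%) and 178 higher (1.35%). Without Eµ-PRMT5 mouse 3, 0 members were at an unadjusted p under 0.05, beside 350 of 13252 genes lower (2.64%) and 431 higher (3.25%), and the median over the members was 0.13. The fold changes without Eµ-PRMT5 mouse 3 were -1.37 for Cd3d, -0.66 for Cd3e, 0.56 for Cd247, 0.24 for Lat and 0.0082 for Cd3g. Without Eµ-PRMT5/TCL1 mouse 1, 2 or 3, 1 member was lower at that level, beside 0.974%, 0.519% and 0.898% of all genes. For Lck the sign turned to -0.35 without Eµ-PRMT5/TCL1 mouse 2, and for Cd3g to 0.31 without Eµ-PRMT5 mouse 4. Fits that left out the library with NA gave -0.91 for Cd4 (SE 0.601), -2.99 for Cd8a (SE 1.43) and -0.44 for Bcl11b (SE 0.688), with adjusted p values from edgeR between 0.986 and 1.00. Cd8a was at 58.4 CPM in Eµ-PRMT5 mouse 3, beside 10.96 CPM in the next mouse, and its fold change was not fitted without mouse 3.

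**Figure D2:**
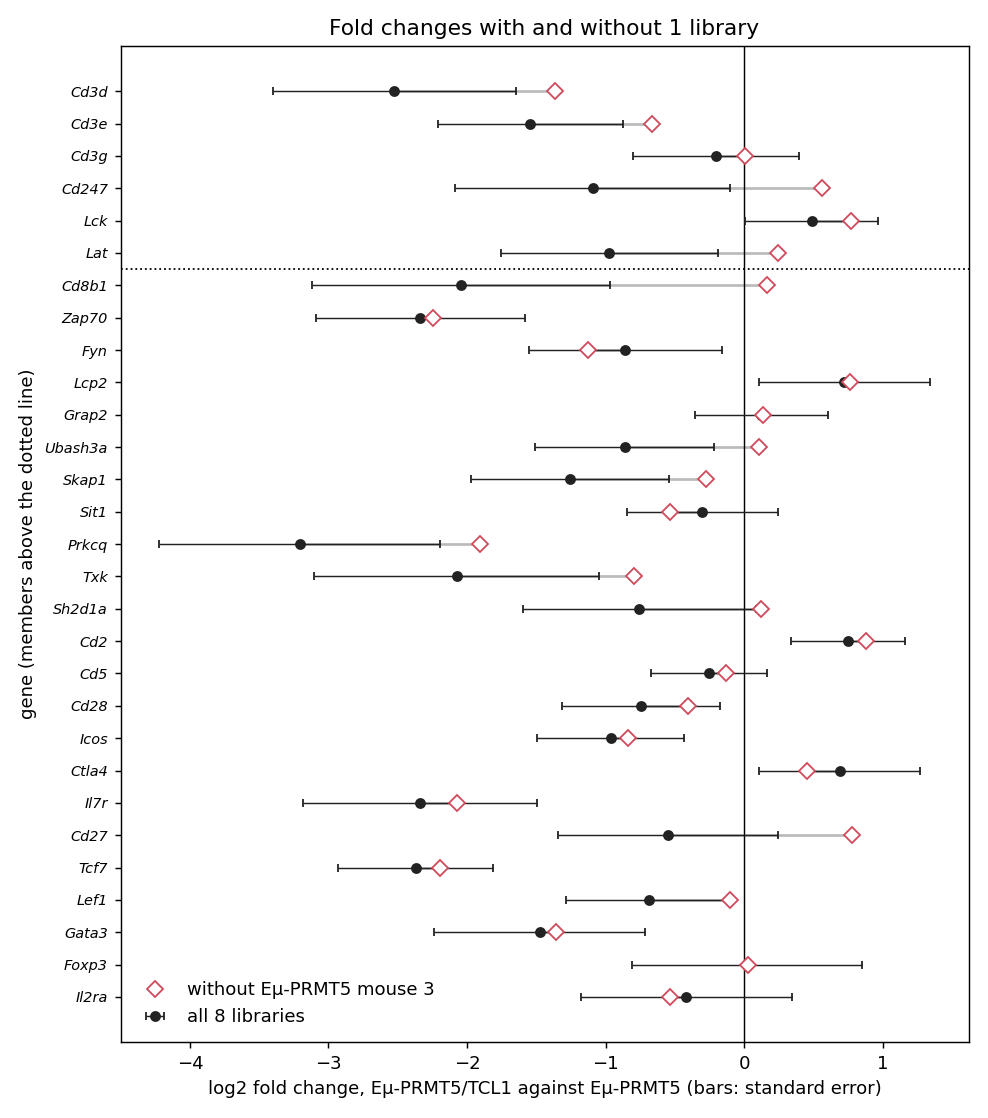
Log2 fold change of the members and of T lineage list genes from edgeR for Eµ-PRMT5/TCL1 against Eµ-PRMT5, with all 8 libraries (filled, bars for the standard error) and without Eµ-PRMT5 mouse 3 (open diamonds). Cd3d is at -2.53 and -1.37, Cd247 at -1.09 and 0.56, and Tcf7 at -2.37 and -2.19.

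The second comparison, Eµ-PRMT5 against Eµ-TCL1, sets the PRMT5 transgene beside an established CLL model. All 6 members tested had a positive log2 fold change, while 48.1% of all genes had a negative one. It was 2.77 for Cd3d (SE 1.47), 1.06 for Lck, 0.96 for Cd247, 0.38 for Lat, 0.10 for Cd3e and 0.10 for Cd3g. Cd3e and Cd3g turned negative when only library size was used for scaling, and Cd3g also under upper-quartile scaling. The smallest adjusted p among the members was 0.709. edgeR called 0 members and 0 genes (0%), and DESeq2 0 members and 18 genes (0.137%). At an unadjusted p under 0.05, edgeR gave 0 members, beside 258 genes higher (1.96%) and 635 lower (4.82%). DESeq2 gave 1 member higher, beside 646 genes higher (4.9%) and 480 lower (3.64%), so the balance of all genes differed between the tools. The Eµ-PRMT5 mice were all above the Eµ-TCL1 mouse for Cd3d and Lck, 2 of the 6 complete members, beside 17.9% of all genes, and all below it for 0 of these 6, beside 24.4%. The median over the members was 0.67 with all libraries and -0.40 without Eµ-PRMT5 mouse 3, beside 0.042 and 0.053 over all genes. Without Eµ-PRMT5 mouse 3, Cd3e (-0.78), Cd3g (-0.11), Cd247 (-0.69) and Lat (-0.84) turned negative. Cd3g was at -0.41 without Eµ-PRMT5 mouse 4. Without mouse 4, edgeR gave 1 member higher at an unadjusted p under 0.05, beside 2.09% of all genes.

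The last comparison, Eµ-PRMT5/TCL1 against Eµ-TCL1, asks what the PRMT5 transgene adds to the TCL1 transgene. The log2 fold change was 1.54 for Lck (SE 0.809) and -1.44 for Cd3e (SE 0.913), the members farthest from 0. It was -0.60 for Lat, 0.25 for Cd3d, -0.13 for Cd247 and -0.10 for Cd3g, and the smallest adjusted p among the members was 0.778. edgeR called 0 members and 0 genes (0%), and DESeq2 0 members and 16 genes (0.121%). At an unadjusted p under 0.05, edgeR gave 0 members, beside 231 genes higher (1.75%) and 571 lower (4.33%). DESeq2 gave 1 member higher, beside 476 genes higher (3.61%) and 454 lower (3.45%). A fit of only these 2 groups in edgeR gave 1 member lower, Cd3e at -1.32, beside 1229 of 13024 genes lower (9.44%) and 1130 higher (8.68%). Of the 6 complete members, all 3 Eµ-PRMT5/TCL1 mice were below the Eµ-TCL1 mouse for Cd3e and Lat, beside 39% of all genes, and above it for Lck, beside 27.6%. The sign turned for Cd3d (-0.084) without Eµ-PRMT5/TCL1 mouse 1, for Cd3g (0.12) without mouse 2 and for Cd247 (0.040) without mouse 3 of that genotype, and without Eµ-PRMT5 mouse 1 for Cd3g (0.11) and Cd247 (0.081). Lck kept its sign but was at 0.71 without Eµ-PRMT5/TCL1 mouse 2 and at 1.89 without Eµ-PRMT5/TCL1 mouse 1. Lat also kept its sign and ran from -0.99 to -0.33 with each replicated mouse left out in turn. In edgeR 1 member was lower at an unadjusted p under 0.05 without Eµ-PRMT5 mouse 3, beside 7.23% of all genes, and 1 higher without Eµ-PRMT5/TCL1 mouse 1, beside 1.08%. The last 2 comparisons share the Eµ-TCL1 mouse, and the first shares its groups with them.

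Among the 4 Eµ-PRMT5 mice, the highest level was 32.04 times the lowest for Cd247, 15.1 times for Cd3d, 14.4 times for Lat, 8.03 times for Cd3e, 6.56 times for Cd3g and 1.94 times for Lck, on values with a prior count of 2. The median was 11.2 times over these members and 2.78 times over all genes tested. Among the 3 Eµ-PRMT5/TCL1 mice the medians were 1.99 and 1.62 times, and Lck had the widest range of the members, at 4.13 times. Except for Lck, the range was wider in the Eµ-PRMT5 group, which also has 1 mouse more. Eµ-PRMT5 mouse 3 was the highest of the 8 libraries for 4 of the 6 complete members, beside 12.7% of all genes. Cd3g was highest in Eµ-PRMT5 mouse 4, as were 20.1% of all genes, and Lck in Eµ-PRMT5/TCL1 mouse 2, as were 5.88%.

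The summed level of the 6 complete members was 259, 273, 674 and 331 CPM across the Eµ-PRMT5 mice, 264, 726 and 297 CPM across the Eµ-PRMT5/TCL1 mice and 221 CPM in the lone Eµ-TCL1 mouse. High sums stood in mouse 3 of the first genotype and mouse 2 of the second, and the other 6 libraries lay together. Lck made up between 54.8% and 91.8% of the sum, so the sum is mainly a level of Lck. Whether that Lck came from T cells or from the B cells of the isolate was not tested. The log2 ratio of group means was 0.16 for Eµ-PRMT5/TCL1 against Eµ-PRMT5, less than the pooled SD of 0.71 within groups, and was 0.58 without Eµ-PRMT5 mouse 3 and -0.46 without Eµ-PRMT5/TCL1 mouse 2. Against the Eµ-TCL1 mouse the log2 ratio was 0.80 for Eµ-PRMT5, and 0.38 without Eµ-PRMT5 mouse 3. It was 0.95 for Eµ-PRMT5/TCL1, and 0.34 without Eµ-PRMT5/TCL1 mouse 2.

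A sum without Lck and Cd3g was added after the data were seen, because the pattern of both differed from that of the other members. It was 38.2, 51.9, 216 and 19.8 CPM across the Eµ-PRMT5 mice, 38.5, 30.3 and 25.1 CPM across the Eµ-PRMT5/TCL1 mice and 53.0 CPM in the lone Eµ-TCL1 mouse. Eµ-PRMT5 mouse 3 alone stood high and mouse 4 was the lowest of all, with the Eµ-TCL1 mouse near Eµ-PRMT5 mouse 2. The means were 81.4 ± 90.5 CPM (SD, n = 4) and 31.3 ± 6.79 CPM (SD, n = 3), a log2 ratio of -1.38, which was -0.23 without Eµ-PRMT5 mouse 3. With Lck alone left out the log2 ratio was -0.81, and -0.092 without that mouse.

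The counts of the 6 members for every 1000 counts of the B cell markers, a ratio that no scaling of libraries alters, were 35.5, 60.4, 90.8 and 158 across the Eµ-PRMT5 mice, 67.9, 124 and 32.1 across the Eµ-PRMT5/TCL1 mice and 40.8 in the lone Eµ-TCL1 mouse. On this scale Eµ-PRMT5 mouse 4 was the highest, and it also had the lowest level of B cell markers. Lck made up most of the member counts here too, and the cells it came from were not tested. The log2 ratio of means was -0.21 for Eµ-PRMT5/TCL1 against Eµ-PRMT5, 0.26 without Eµ-PRMT5 mouse 4 and -0.79 without Eµ-PRMT5/TCL1 mouse 2. It was 1.08 for Eµ-PRMT5 against Eµ-TCL1, and 0.61 without Eµ-PRMT5 mouse 4. For Eµ-PRMT5/TCL1 against Eµ-TCL1 it was 0.87, and 0.29 without Eµ-PRMT5/TCL1 mouse 2. Without Lck and Cd3g the ratio was 5.23, 11.5, 29.0 and 9.48 across the Eµ-PRMT5 mice, 9.93, 5.19 and 2.71 across the Eµ-PRMT5/TCL1 mice and 9.77 in the lone Eµ-TCL1 mouse. The highest was then Eµ-PRMT5 mouse 3, and the other libraries overlapped between the genotypes.

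Among the other genes of T receptor signalling and the T lineage, 30 of 33 listed had an entry in the matrix, and Trac, Trbc1 and Trbc2, the constant regions of the receptor chains themselves, had none. A value in all 8 libraries was held by 24, and Themis, Trat1, Cd6, Cd40lg, Thy1 and Cd96 held NA in at least 1. B lineage or CLL-like cells also express several of the listed genes, among them Zap70, Fyn, Cd5, Il7r, Cd27, Lef1, Il2ra, Sit1, Txk, Ctla4 and Cd2. The summed level of the 24 genes was 883, 870.3, 1314 and 425 CPM across the Eµ-PRMT5 mice, 967, 860 and 754 CPM across the Eµ-PRMT5/TCL1 mice and 706 CPM in the lone Eµ-TCL1 mouse. The sum was highest in Eµ-PRMT5 mouse 3 and lowest in mouse 4. Cd2, an adhesion receptor of T and NK cells and, in mice, of B cells, made up 41% of this sum pooled over the 8 libraries. Its share was higher in each Eµ-PRMT5/TCL1 mouse than in any other library. Cd2 was at 360, 292, 353 and 113 CPM across the Eµ-PRMT5 mice, 461, 524 and 422 CPM across the Eµ-PRMT5/TCL1 mice and 253 CPM in the lone Eµ-TCL1 mouse. All Eµ-PRMT5/TCL1 mice were above all others for Cd2.

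For Eµ-PRMT5/TCL1 against Eµ-PRMT5, edgeR called 0 of these 24 genes, beside 0% of all genes, and DESeq2 called 1, Tcf7, as lower, beside 0.0304%. At an unadjusted p under 0.05, edgeR gave 4 lower and 0 higher with all libraries, beside 1.21% and 0.957% of all genes. It gave the same without Eµ-PRMT5 mouse 3, beside 2.64% and 3.25%, and 9 lower and 0 higher without Eµ-PRMT5 mouse 4, beside 2.82% and 2.98%. DESeq2 gave 6 lower and 0 higher with all libraries, beside 1.88% and 1.11%. The median log2 fold change was -0.75 and 19 of 24 were negative, and without Eµ-PRMT5 mouse 3 the median was -0.20 and 14 were negative. Tcf7, a transcription factor of early and memory T cells, was at 33.5, 36.7, 40.8 and 10.5 CPM across the Eµ-PRMT5 mice, at 5.25, 4.00 and 8.30 CPM across the Eµ-PRMT5/TCL1 mice and at 28.1 CPM in the lone Eµ-TCL1 mouse. The Eµ-PRMT5/TCL1 mice were below every other library. The log2 fold change of Tcf7 was -2.37 (SE 0.559) with an adjusted p of 1 in edgeR, -2.19 without Eµ-PRMT5 mouse 3, and -2.37 with an adjusted p of 0.0288 in DESeq2. Over 16 settings of edgeR the adjusted p of Tcf7 lay between 0.100 and 1.

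The other genes at an unadjusted p under 0.05 in that comparison were Prkcq, Zap70 and Il7r. Prkcq, the kinase PKC theta, had a log2 fold change of -3.21 and was at 18.3, 14.9, 78.4 and 1.27 CPM across the Eµ-PRMT5 mice, 3.44, 2.86 and 2.77 CPM across the Eµ-PRMT5/TCL1 mice and 5.95 CPM in the lone Eµ-TCL1 mouse. It was highest in Eµ-PRMT5 mouse 3, as Cd3d was, and lowest in Eµ-PRMT5 mouse 4, and without Eµ-PRMT5 mouse 3 its fold change was -1.91. Zap70, the kinase that binds the phosphorylated CD3 and zeta motifs, had a log2 fold change of -2.34 and was at 5.48, 8.23, 20.5 and 34.5 CPM across the Eµ-PRMT5 mice, 2.46, 6.01 and 1.69 CPM across the Eµ-PRMT5/TCL1 mice and 7.30 CPM in the lone Eµ-TCL1 mouse. Like Cd3g, it was highest in Eµ-PRMT5 mouse 4. Il7r, the interleukin 7 receptor chain, had a log2 fold change of -2.34 and was at 30.7, 26.8, 35.8 and 1.61 CPM across the Eµ-PRMT5 mice, 7.38, 4.29 and 2.31 CPM across the Eµ-PRMT5/TCL1 mice and 5.68 CPM in the lone Eµ-TCL1 mouse. Eµ-PRMT5 mouse 4 was below all other libraries for Il7r.

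By role, the kinases Fyn and Txk had log2 fold changes of -0.86 and -2.07 for Eµ-PRMT5/TCL1 against Eµ-PRMT5. The adaptors and regulators of the signal lay between -1.26 (Skap1) and 0.72 (Lcp2), with Ubash3a at -0.86, Sh2d1a at -0.76, Sit1 at -0.30 and Grap2 at 0.12. The receptors of costimulation and inhibition lay between -0.96 (Icos) and 0.75 (Cd2), with Cd28 at -0.75, Cd27 at -0.55, Cd5 at -0.25 and Ctla4 at 0.69. The coreceptor chain Cd8b1 was at -2.04 and the cytokine receptor chain Il2ra at -0.42. The transcription factors Gata3, Lef1 and Foxp3 were at -1.47, -0.68 and 0.020. Without Eµ-PRMT5 mouse 3 the sign turned for Cd8b1 (0.17), Cd27 (0.77), Ubash3a (0.10) and Sh2d1a (0.12), and Txk (-0.80), Skap1 (-0.28), Cd28 (-0.41) and Lef1 (-0.10) came nearer to 0. With each replicated mouse left out in turn, the fold change crossed 0 for Lcp2 (-0.52 to 1.19), Il2ra (-0.93 to 0.40), Foxp3 (-0.42 to 0.47), Grap2 (-0.15 to 0.49) and Sit1 (-0.53 to 0.16). It kept its sign but ran from -1.21 to -0.16 for Fyn, from -0.70 to -0.0038 for Cd5, from -2.07 to -0.97 for Gata3, from 0.16 to 1.15 for Ctla4 and from 0.49 to 0.94 for Cd2. Groups did not overlap for 2 of the 24, Tcf7 below and Cd2 above, beside 1.59% and 1.35% of all genes.

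Against the Eµ-TCL1 mouse, edgeR and DESeq2 called 0 of the 24 genes in either comparison, beside 0% of all genes in edgeR and 0.137% for Eµ-PRMT5 and 0.121% for Eµ-PRMT5/TCL1 in DESeq2. At an unadjusted p under 0.05, edgeR gave Ctla4 lower in Eµ-PRMT5 mice (log2 fold change -1.77), and Tcf7 (-2.26) and Icos (-1.61) lower in Eµ-PRMT5/TCL1 mice, with 0 higher, beside 4.82% and 4.33% of all genes lower. DESeq2 gave 2 higher and 0 lower in Eµ-PRMT5 mice, beside 4.9% and 3.64% of all genes, and, for the Eµ-PRMT5/TCL1 mice, 0 higher, beside 3.61%, and 1 lower, beside 3.45%. For Eµ-PRMT5 against Eµ-TCL1, edgeR gave 0 lower without Eµ-PRMT5 mouse 2, 3 or 4, beside 3.04%, 12.2% and 3.99% of all genes, and 4 higher without mouse 4, beside 2.09%. For Eµ-PRMT5/TCL1 it gave 1 lower without Eµ-PRMT5 mouse 1 or 2 or any 1 mouse of the double transgenic group, beside 1.95% to 3.86% of all genes. Ctla4, an inhibitory receptor of activated and regulatory T cells that some B cells also make, was at 58.5, 27.9, 15.7 and 32.1 CPM across the Eµ-PRMT5 mice, at 62.0, 12.9 and 87.3 CPM across the Eµ-PRMT5/TCL1 mice and at 114 CPM in the lone Eµ-TCL1 mouse. Icos, a costimulatory receptor, was at 7.71, 8.23, 9.35 and 4.50 CPM across the Eµ-PRMT5 mice, at 3.28, 4.72 and 3.38 CPM across the Eµ-PRMT5/TCL1 mice and at 11.6 CPM in the lone Eµ-TCL1 mouse. The Eµ-TCL1 mouse was the highest library for both. The Eµ-PRMT5 mice were all below it for 2 of the 24 genes, Ctla4 and Icos, and all above it for Cd5 and Sit1, beside 24.4% and 17.9% of all genes. The Eµ-PRMT5/TCL1 mice were all below it for 11 of the 24 and above it for 6, beside 39% and 27.6% of all genes. The median over the 24 genes was 0.74 for Eµ-PRMT5, -0.026 without Eµ-PRMT5 mouse 3, and -0.22 for Eµ-PRMT5/TCL1, beside 0.042 and -0.073 over all genes.

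**Figure D3:**
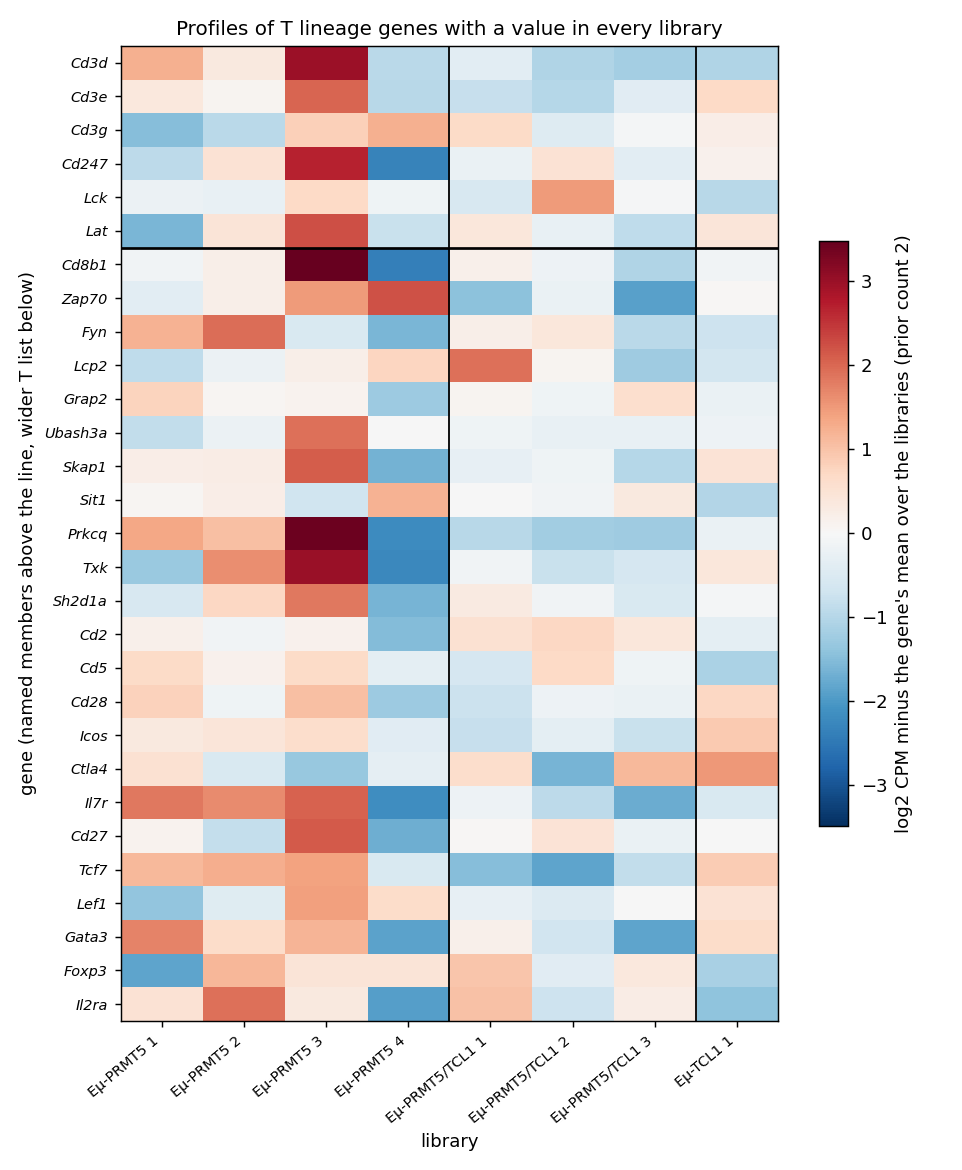
Centred log2 CPM (prior count 2) of the members and of T lineage list genes with a value in all libraries, by mouse, with red above and blue below the mean of each gene. Eµ-PRMT5 mouse 3 is the highest library for 4 of 6 members, and Eµ-PRMT5 mouse 4 is the highest for Cd3g and the lowest for Cd247.

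Eµ-PRMT5 mouse 3 was the highest library for 12 of the 24 list genes and Eµ-PRMT5 mouse 4 the lowest for 14, beside 12.7% and 18% of all genes. The mean centred profile of the 6 members was 1.91 in Eµ-PRMT5 mouse 3 and -0.65 in mouse 4 on the log2 scale, with the other libraries between -0.49 and 0.032. The median root mean square difference from it was 0.94 over all genes tested. For each member against the mean of the other 5, so that no member had a part in its own reference, the median was also 0.94. Ubash3a and Sh2d1a were the nearest of the list, at 0.30 and 0.46, and Ctla4 the farthest, at 1.57. Outside the lists the 10 nearest genes were 4921507G05Rik (0.20), Stkld1 (0.23), Cers3 (0.25), Myadml2 (0.33), Ankrd60 (0.34), Krt39 (0.34), Slc26a6 (0.34), Cp (0.35), Gm6351 (0.35) and Bcas3os2 (0.36). All 10 were highest in Eµ-PRMT5 mouse 3, which follows from their choice by nearness to a profile that peaks there. They were at no more than 18.0 CPM in any library.

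The isolates are labelled as B cells, and all 10 B cell markers had a value in every library, the lowest being 3 counts of Cr2 in Eµ-PRMT5 mouse 4. Their summed level was 7293, 4511, 7426 and 2091 CPM across the Eµ-PRMT5 mice, 3879, 5840.2 and 9251 CPM across the Eµ-PRMT5/TCL1 mice and 5426 CPM in the lone Eµ-TCL1 mouse. Eµ-PRMT5 mouse 4 was the lowest library for 7 of the 10. The highest by the mean over the libraries was Cd79a, a chain of the B cell receptor, at 1792.5, 924, 1714.5 and 411 CPM across the Eµ-PRMT5 mice, 1022.5, 1409.9 and 2115 CPM across the Eµ-PRMT5/TCL1 mice and 1762.5 CPM in the lone Eµ-TCL1 mouse. It was lowest in Eµ-PRMT5 mouse 4 as well, where Cd79b was above it, and it was not the highest marker in every library.

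The NK and cytotoxic list had 6 of 11 genes with a value in every library, and Klrb1c, Klrd1, Gzma, Gzmb and Eomes held NA in at least 1. Its summed level was 117, 181, 621 and 97.0 CPM across the Eµ-PRMT5 mice, 177, 166 and 121 CPM across the Eµ-PRMT5/TCL1 mice and 52.4 CPM in the lone Eµ-TCL1 mouse. Eµ-PRMT5 mouse 3 was the highest for the sum and for 4 of the 6 genes, as for the members. Ccl5, a chemokine of NK cells and cytotoxic T cells, had the highest mean, at 61.9, 84.4, 200.2 and 21.7 CPM across the Eµ-PRMT5 mice, 60.2, 30.9 and 6.92 CPM across the Eµ-PRMT5/TCL1 mice and 13.5 CPM in the lone Eµ-TCL1 mouse. Nkg7, a granule protein of the same cells, was at 279 CPM in Eµ-PRMT5 mouse 3 and at no more than 55.7 CPM elsewhere. Klrk1 and Tbx21 were not highest in that mouse, at 8.435 and 56.53 CPM beside up to 20.99 and 92.97 CPM elsewhere. Of the genes left out of the sum for NA, Klrb1c, Gzmb and Eomes were highest there. Klrd1 was not, and Gzma had its lowest value there, 1.14 CPM beside up to 23.14 CPM elsewhere. Nkg7 or Tbx21 was above Ccl5 in Eµ-PRMT5 mice 3 and 4 and in double transgenic mice 2 and 3. The part of NK cells in the members' levels was not tested.

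The dendritic list had 3 of 7 genes with a value in every library, Xcr1, Clec9a, Itgax and Siglech held NA in at least 1, and Zbtb46 had the highest mean, below Flt3 in Eµ-PRMT5 mouse 3 and double transgenic mouse 1. Its sum was 40.8, 90.2, 52.0 and 24.2 CPM across the Eµ-PRMT5 mice, 56.4, 34.0 and 35.8 CPM across the Eµ-PRMT5/TCL1 mice and 70.3 CPM in the lone Eµ-TCL1 mouse. The macrophage list had 5 of 8, with NA in C1qa, C1qb and C1qc and with Lyz2 the most abundant, and its sum was 1184, 1124, 1217 and 3322 CPM across the Eµ-PRMT5 mice, 7325, 2697 and 991 CPM across the Eµ-PRMT5/TCL1 mice and 1070.4 CPM in the lone Eµ-TCL1 mouse. Neither sum was highest in Eµ-PRMT5 mouse 3. Of the dendritic genes left out of the sum for NA, Siglech was highest there, at 24.4 CPM beside at most 14.8 CPM elsewhere. Xcr1, Clec9a and Itgax were not highest in that mouse. All 8 neutrophil genes had values, Ngp with the highest mean but below Mpo in Eµ-PRMT5 mouse 3 and double transgenic mouse 1, and their sum was 2623.5, 2094, 427 and 5067 CPM across the Eµ-PRMT5 mice, 8637.5, 4919 and 631 CPM across the Eµ-PRMT5/TCL1 mice and 583 CPM in the lone Eµ-TCL1 mouse. This sum was lowest in Eµ-PRMT5 mouse 3, although Ly6g was highest there, at 12.5 CPM. The macrophage sum and the neutrophil sum were each above that of the B cell markers in 2 libraries, mouse 4 of the Eµ-PRMT5 group and mouse 1 of the double transgenic group.

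The erythroid list had 4 of 6 genes with a value in every library, with Hba-a1 the most abundant, and its sum was 97.2, 15.0, 46.5 and 276 CPM across the Eµ-PRMT5 mice, 309, 84.8 and 41.0 CPM across the Eµ-PRMT5/TCL1 mice and 17.6 CPM in the lone Eµ-TCL1 mouse. All 4 plasma cell genes had values, Jchain with the highest mean but below Xbp1 in Eµ-PRMT5 mice 2 and 4, double transgenic mice 1 and 2 and the Eµ-TCL1 mouse, and their sum was 5604, 2057, 1449.8 and 587 CPM across the Eµ-PRMT5 mice, 521, 406 and 2697 CPM across the Eµ-PRMT5/TCL1 mice and 1887 CPM in the lone Eµ-TCL1 mouse. Neither sum followed the members, since Eµ-PRMT5 mouse 3 was within the range of the other mice for both. The part of these cell types in the members' levels was not tested.

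**Figure D4:**
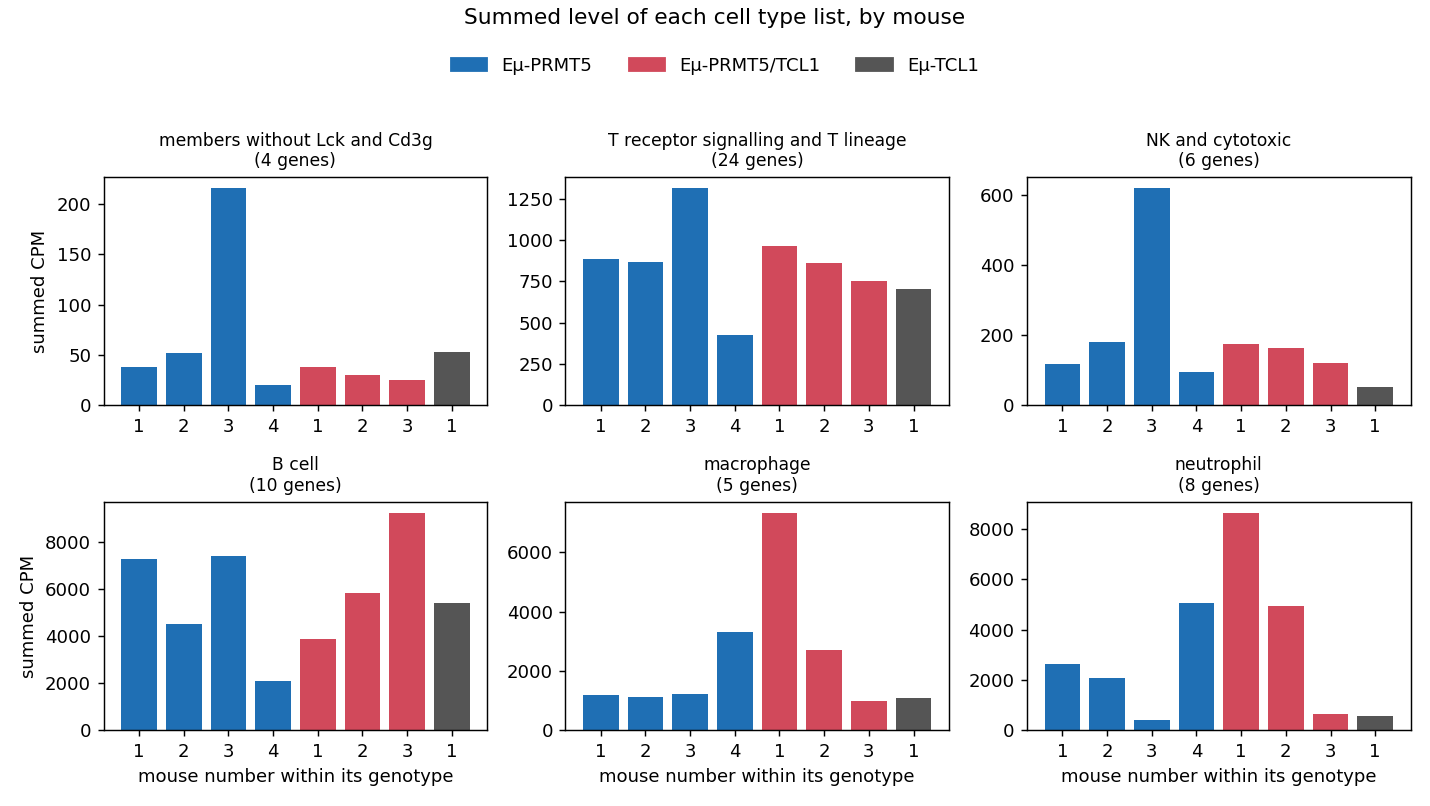
Summed level of the members without Lck and Cd3g and of 5 cell type lists in each mouse, in CPM over the genes with a value in all 8 libraries, coloured by genotype. Eµ-PRMT5 mouse 3 stands highest for the members without Lck and Cd3g (216 CPM), the T lineage list (1314 CPM) and the NK and cytotoxic list (621 CPM).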

How the data were processed

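Bulk RNA of splenic B cell isolates was sequenced from 8 mice. Per the labels, the values that the authors deposited are raw counts for each gene symbol, and their notes name GRCm38, Subread, featureCounts and DESeq2 1.20.0. The methods and the labels name different library kits, only that of the labels being stranded, and whether the counting used strand is not stated.

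Counts were scaled by TMM and tested with the edgeR 4.0.16 quasi-likelihood test in R 4.3.3, in 1 model with a mean for each of the 3 genotypes. Genes needed a value in all 8 libraries and had to pass filterByExpr, which left 13173. A gene was called at a Benjamini-Hochberg adjusted p under 0.05 and a fold over 4, the thresholds the study gives in a figure legend. Poisson intervals used scipy 1.17.1 in Python 3.11.15, and exons came from GENCODE M21.

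Alternatives were DESeq2 1.42.0, scaling by library size or upper quartile, a fit without the filter, a minimum of 10 counts in each library, NA counted as 0, only the 2 groups compared, a replicate block and each replicated mouse left out in turn. Named genes are the 9 members, the T lineage list, the B cell list, the genes of highest mean and defining genes of the NK and cytotoxic, dendritic, macrophage, neutrophil, erythroid and plasma cell lists, and the 10 genes outside the lists nearest the members' mean profile. The members and lists were chosen with earlier results of these data known.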

Additional observations from a re-analysis of the deposited data

Results flagged for a closer look

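In the 4 Eµ-PRMT5 mice, 46 measures were examined for 1 mouse far from the other 3, by the gap to the nearest mouse as a share of the whole range. By Dixon's test 7 were beyond its 95% critical value, 6 of them in mouse 3. Chance gives about 1 in 20 only where the values are normally distributed. The gaps were taken on CPM without a log, and whether these values meet that was not tested. No excess over chance was therefore read from the count. Of the 46 measures, 2 are sums formed after the data were seen. Without them 6 of 44 were beyond the critical value, 5 of them in mouse 3. The measures share libraries and are not independent.

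In mouse 3, Lck was at 387 CPM beside 216 CPM in the next mouse. Cd8b1 was at 125 CPM there, beside 12.5 CPM in the next mouse. Ubash3a was at 54.0 CPM, beside 13.7 CPM. Thy1 was at 11.6 CPM, beside 2.64 CPM. The summed level of the members without Lck and Cd3g, 1 of those 2 sums and formed with its pattern in view, was 216 CPM, beside 51.9 CPM. The NK and cytotoxic list was at 621 CPM, beside 181 CPM. In mouse 4, the macrophage list was at 3322 CPM, beside 1217 CPM in the next mouse.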

How the results depend on the processing

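Of the members' log2 fold changes under the alternatives, 88 of 97 kept their direction for Eµ-PRMT5/TCL1 against Eµ-PRMT5, 77 of 85 for Eµ-PRMT5 against Eµ-TCL1 and 77 of 85 for Eµ-PRMT5/TCL1 against Eµ-TCL1, with 0 called. For the 6 T list genes at an unadjusted p under 0.05 in any comparison (Tcf7, Prkcq, Zap70, Il7r, Ctla4 and Icos), 95 of 96, 81 of 84 and 83 of 84 kept their direction and their side of the threshold for a call, an adjusted p under 0.05 with a fold over 4, while Cd8b1, Cd27, Ubash3a and Sh2d1a turned sign without Eµ-PRMT5 mouse 3 in the first 2 comparisons. Depth limits Cd4, Cd8a, Cd247 and Cd3d, since each had under 30 counts in several libraries.

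DESeq2 called 4, 18 and 16 genes in the 3 comparisons, and 1 T list gene, Tcf7 (log2 fold change -2.37), in the first. The alternatives that left out members, chosen after seeing the data, gave log2 ratios for Eµ-PRMT5/TCL1 of -0.81 without Lck and -1.38 without Lck and Cd3g against Eµ-PRMT5, and of -0.41 and -0.76 against Eµ-TCL1. Without Eµ-PRMT5 mouse 3 the first 2 were -0.092 and -0.23, and the ratio of -0.41 ran from -0.70 to -0.27 with each Eµ-PRMT5/TCL1 mouse left out. Relative to B cell markers, without Lck and Cd3g, the ratios were -1.22 against Eµ-PRMT5, and -0.56 without Eµ-PRMT5 mouse 3, and -0.72 against Eµ-TCL1, running from -1.31 to -0.37 with each Eµ-PRMT5/TCL1 mouse left out.

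At an unadjusted p under 0.05, upper-quartile scaling gave 1 member lower in the first comparison, beside 144 genes higher and 107 lower of 13173. The minimum of 10 counts gave 1 of 4 members lower, beside 113 genes higher and 116 lower of 11045. With NA counted as 0, 2 of 9 members were lower, Cd3d and Cd8a (-3.44) but not Cd3e (-1.43), beside 209 genes higher and 199 lower of 19814. For Eµ-PRMT5 against Eµ-TCL1, 0 members passed with library size alone (128 genes higher, 794 lower), NA counted as 0 (487 and 412) or only the 2 groups compared (129 and 266). For Eµ-PRMT5/TCL1 against Eµ-TCL1, 0 members passed with library size alone (137 and 781) or NA counted as 0 (403 and 313), and 1 member was lower with only the 2 groups compared (1130 and 1229).

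The same-numbered mice of both PRMT5 genotypes are different animals. Their deviations from the group means correlated across genes at -0.021, 0.15 and 0.16 for mice 1 to 3, and mouse 1 was not nearest its own number, so no pairing was used. With a replicate block for mice 1 to 3, edgeR called 0 genes, with an unadjusted p under 0.05 for 495 genes higher and 331 lower, and Cd3g was at 0.56, against 0.30 in the same mice without the block, a setting chosen after seeing the data.

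Other log2 fold changes turned sign. For Eµ-PRMT5/TCL1 against Eµ-PRMT5, Bcl11b was 0.065 with NA counted as 0. For Eµ-PRMT5 against Eµ-TCL1, library size alone gave -0.032 for Cd3e, -0.15 for Cd3g and -0.091 for Tcf7, and upper-quartile scaling -0.039 for Cd3g and -0.016 for Tcf7. For Eµ-PRMT5/TCL1 against Eµ-TCL1, NA counted as 0 gave 0.18 for Cd3g and 0.16 for Cd247, and only the 2 groups compared gave 0.018 for Cd3g. Library size alone moved the median of all genes against Eµ-TCL1 from 0.042 to -0.21 for Eµ-PRMT5 and from -0.073 to -0.30 for Eµ-PRMT5/TCL1, and upper-quartile scaling to -0.12 and -0.17. The cause was not tested.

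With each replicated mouse left out in turn, the log2 fold change for Eµ-PRMT5/TCL1 against Eµ-PRMT5 ran from -0.57 to 0.31 for Cd3g, from -1.49 to 0.56 for Cd247, from -0.35 to 0.83 for Lck and from -1.36 to 0.24 for Lat. For Eµ-PRMT5 against Eµ-TCL1 it ran from -0.78 to 0.41 for Cd3e, from -0.41 to 0.61 for Cd3g, from -0.69 to 1.40 for Cd247, from -0.84 to 0.85 for Lat and from -0.063 to 0.40 for Tcf7. For Eµ-PRMT5/TCL1 against Eµ-TCL1 it ran from -0.084 to 0.45 for Cd3d, from -0.47 to 0.12 for Cd3g, from -0.47 to 0.081 for Cd247 and from -0.78 to 0.037 for Il7r.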
